A study of Mus musculus with 6 samples.

Results

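Immunoglobulin light-chain segments were examined in the RNA of mouse regulatory T cells (Tregs), a class of CD4 T cells whose identity depends on the transcription factor Foxp3. The members are table rows annotated as immunoglobulin genes or pseudogenes on chromosome 6 (the kappa locus) or chromosome 16 (the lambda locus) and were selected on their count sum, at least 10 over the 6 libraries. This rule kept 73 of 196 such rows and of 55840 rows in all. It used only the sum over both genotypes, so the counts that decided membership are given below as a description, while the comparison of genotypes did not enter the rule. Of the 196 rows, 97 had 0 counts and 26 had fewer than 10. The members held 10999 counts, 99.1% of the light-chain counts and 0.00969% of all counts.

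The series has 3 libraries of wild-type (WT) Tregs and 3 of Tregs labelled Exon2KO, which the series title writes as Foxp3 with a delta 2 mark. The title places the cells in spleen and lymph nodes. The labels give no age, no sorting gate, no purity and no word on whether each library came from 1 animal or a pool, so p-values measure the spread between these libraries. Libraries are named by genotype and by the number in their column name (2, 6 or 20), since the titles number replicates differently.

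An antibody light chain is encoded by a variable (V) segment joined to a joining (J) segment, which is spliced to a constant (C) exon. The joining is done by the RAG recombinase in developing B cells, and each B cell normally keeps 1 productive light chain. Kappa is rearranged first and is the common light chain of mouse B cells; the mouse lambda locus is small. Rearranged light-chain transcripts are abundant in B cells and above all in antibody-secreting plasma cells, while Tregs are not antibody-producing cells.

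Of the 73 members, 67 were kappa segments and 6 lambda segments. The kappa members were 62 of 178 V rows, 4 of 5 J rows and the single constant gene, Igkc. The lambda members were all 3 V genes (Iglv1, Iglv2 and Iglv3) and 3 of 4 constant genes (Iglc1, Iglc2 and Iglc3); none of the 5 lambda J rows reached 10 counts. The kappa V rows include 74 pseudogenes, of which only Igkv2-107 was a member, with 11 counts. Just inside the threshold, with 10 counts each, were Igkv4-90, Igkv12-41, Igkv4-50 and Igkv8-34. Just outside, with 9 counts each, were Igkv12-89 and Iglj1, and Igkj1 had 8.

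Total counts ran from 17998216 to 21003496 per library. A level of 3 counts, taken as the smallest a library can show, corresponded to 0.141 to 0.169 CPM (counts scaled by library size) and covers counting error only. On the first principal component of log2(CPM + 1), which held 35.5% of the variance, both libraries numbered 20 scored highest, at 31.2 for WT 20 and 14.4 for Exon2KO 20, against -23.6 to 2.16 for the other 4, so results are also given without them. Treg markers were high in all libraries: Foxp3 ran from 601 to 923 CPM, and the summed level of Foxp3, Cd3e, Cd4, Il2ra, Ctla4 and Ikzf2 from 2764 to 3471 CPM. Of these 6 markers, 3 were called lower in Exon2KO by edgeR, without and with a block on the column number: Il2ra, an interleukin-2 receptor chain (log2 difference without the block -0.52, adjusted p = 0.0429), Ctla4, an inhibitory receptor (-0.85, adjusted p = 0.00677), and Ikzf2, a transcription factor (-0.66, adjusted p = 0.024). Foxp3, Cd3e and Cd4 were not called in either fit. Over all tested genes, 1.58% were called lower without the block and 5.79% with it. The counts are per gene, so the deletion of the exon could not be checked.

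The J segments are shown first because every kappa chain carries 1 of them. The capitals mark the 12 bases that start with the phenylalanine codon of the framework motif shared by J segments. All 5 lie on the plus strand of chromosome 6 (GRCm38), between Igkj1 at chr6:70722562-70722599 and Igkj5 at chr6:70723886-70723927. The sequences are from GENCODE release M21 transcripts, and Igkj3 is known as a segment that is not used in functional chains.
Igkj1: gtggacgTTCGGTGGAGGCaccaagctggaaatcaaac
Igkj2: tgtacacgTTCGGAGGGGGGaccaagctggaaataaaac
Igkj3: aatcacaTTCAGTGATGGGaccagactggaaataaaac
Igkj4: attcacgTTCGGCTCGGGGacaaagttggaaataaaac
Igkj5: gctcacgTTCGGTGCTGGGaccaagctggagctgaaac

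The V segments that the results turn on are shown by the last 60 bases of their GENCODE transcript. The capitals mark the conserved cysteine codon; the bases before it are framework, and the bases after it enter the antigen-binding loop formed at the V-J joint. Igkv1-110, Igkv1-117 and Igkv10-96 were among the most abundant kappa V genes, Igkv5-45 was abundant in 1 library, Igkv6-17 is described with the tests below, and the lambda locus has only the 3 V genes shown.
Igkv1-110: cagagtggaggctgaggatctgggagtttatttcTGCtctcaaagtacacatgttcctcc
Igkv1-117: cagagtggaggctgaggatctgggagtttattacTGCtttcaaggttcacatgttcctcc
Igkv10-96: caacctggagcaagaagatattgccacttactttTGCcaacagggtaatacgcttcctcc
Igkv5-45: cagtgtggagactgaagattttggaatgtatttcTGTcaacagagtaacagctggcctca
Igkv6-17: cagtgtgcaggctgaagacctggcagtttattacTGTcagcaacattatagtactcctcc
Iglv1: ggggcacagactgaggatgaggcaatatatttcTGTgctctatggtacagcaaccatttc
Iglv2: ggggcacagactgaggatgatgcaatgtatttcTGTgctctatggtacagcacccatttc
Iglv3: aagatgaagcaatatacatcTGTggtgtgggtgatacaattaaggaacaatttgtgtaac

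Several members are near copies, so reads can be shared between them, and the sources used here do not say how the counting treated such reads. Over whole transcripts, Igkv1-110 and Igkv1-117 are 96.8% identical and Iglv1 and Iglv2 90.8% identical. Iglc2 and Iglc3 are 94.3% identical, against 69.1% for Iglc1 and Iglc2. The start of the constant exons shows the same order, as the first 60 bases of each.
Iglc1: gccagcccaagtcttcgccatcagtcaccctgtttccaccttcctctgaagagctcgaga
Iglc2: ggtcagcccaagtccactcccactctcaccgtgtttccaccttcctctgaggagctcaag
Iglc3: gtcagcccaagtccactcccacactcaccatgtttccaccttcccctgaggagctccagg
Among the 62 kappa V members, 17 had another kappa V row at 95% identity or more, and the median identity to the nearest relative was 92.2%. Igkc is the only kappa constant gene and is 55.1% identical to Iglc1. The effect of shared reads on the counts was not tested.

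The mean level of kappa transcripts was lower in Exon2KO than in WT Tregs, to about the same extent in the V genes and in the constant gene, while the mean level of lambda transcripts was higher and its groups overlapped. Summed over the 62 V genes, the kappa V level was 51.4, 49.7 and 27.5 CPM in WT 2, 6 and 20 and 24.0, 20.4 and 17.6 CPM in Exon2KO 2, 6 and 20. Every Exon2KO library lay below every WT library. The means were 42.9 ± 13.3 CPM in WT and 20.7 ± 3.18 CPM in Exon2KO (SD, n = 3 each), so Exon2KO stood at 48.2% of WT, and the pairs with the same number at 46.7%, 41.0% and 64.0%. In bulk RNA, fewer cells of a type and less RNA per cell cannot be told apart. Sums over members are given without a test.

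Igkc (ENSMUSG00000076609, chr6:70726435-70726966, plus strand) encodes the only kappa constant domain and held 6205 of the 10999 member counts. It had 1453, 1643 and 1022 counts in WT 2, 6 and 20, against 659, 1011 and 417 in Exon2KO 2, 6 and 20. As levels these were 77.9, 90.4 and 47.9 CPM in WT and 36.6, 51.8 and 23.4 CPM in Exon2KO. The groups overlapped, because Exon2KO 6 lay above WT 20. The means were 72.1 ± 21.8 CPM in WT and 37.3 ± 14.2 CPM in Exon2KO (SD, n = 3 each), with a log2 difference of -0.95 (SE 0.37, adjusted p = 0.403 by the quasi-likelihood test of edgeR), which did not pass the threshold. Within each number Igkc was lower in Exon2KO, at 46.9%, 57.3% and 48.9% of its WT partner. With the column number as a block it fell by 0.97 on the log2 scale (SE 0.08, adjusted p = 1.04e-06 by edgeR). In the blocked fit without both libraries numbered 20 it fell by 0.94 (SE 0.09, adjusted p = 5.1e-05 by edgeR). Beside this, the summed level of 8 plasma cell markers was 267 to 296 CPM in WT and 206 to 246 CPM in Exon2KO. Most of that sum came from Xbp1, Prdm1 and Irf4, which Tregs also make. The sum of 14 B cell markers, much of it from H2-Ob, was 118 to 146 CPM in WT and 100 to 128 CPM in Exon2KO. The part of these markers in the result was not tested.

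The lambda sums showed no common direction over the 3 numbers. The summed level of the 3 lambda V genes was 3.06, 4.02 and 3.89 CPM in WT 2, 6 and 20 and 7.10, 7.79 and 3.03 CPM in Exon2KO 2, 6 and 20. The lambda constant genes summed to 3.16, 5.56 and 3.79 CPM in WT and to 6.77, 9.43 and 3.09 CPM in Exon2KO. In both sums Exon2KO 2 and 6 were above all 3 WT libraries and Exon2KO 20 was below its WT partner, so the groups overlapped. The mean of all lambda members was 7.82 ± 1.68 CPM in WT and 12.4 ± 5.69 CPM in Exon2KO (SD, n = 3 each). Relative to the WT library of the same number, the lambda sum stood at 223% and 179.8% for numbers 2 and 6 and at 79.7% for number 20.

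**Figure D1:**
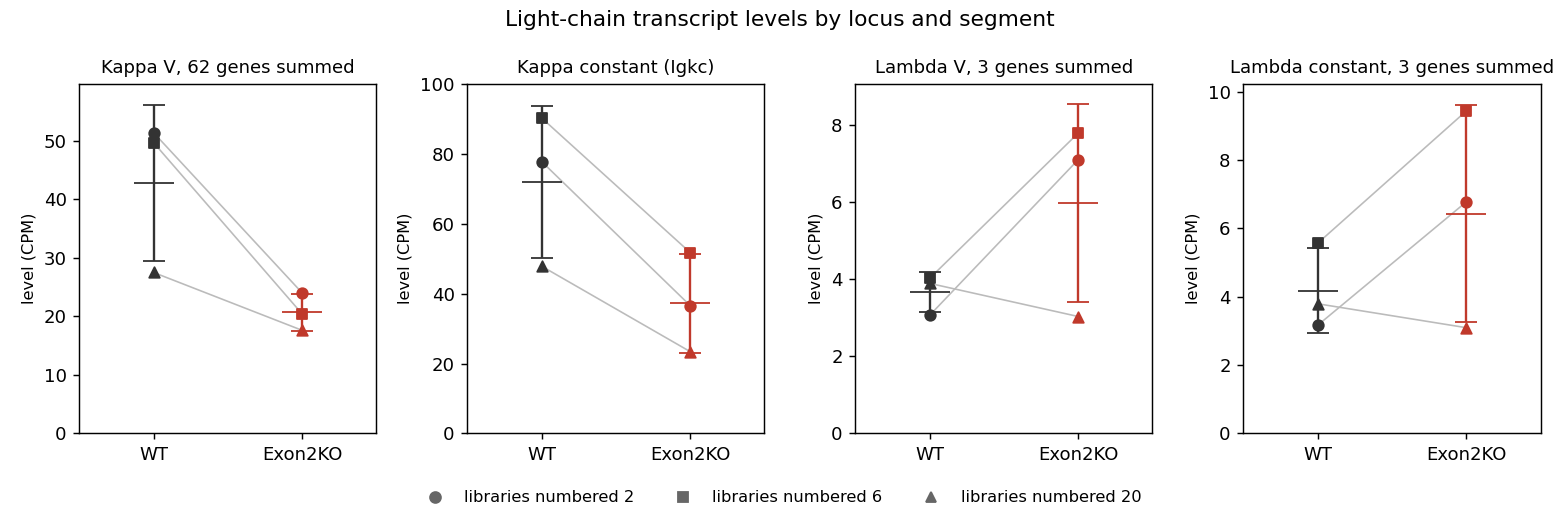
Levels in CPM on the scaled library size (y axes start at 0) of kappa V, kappa constant, lambda V and lambda constant members in WT and Exon2KO libraries. Points are single libraries with a marker for each column number, gray lines join the same number, and bars are the mean ± SD of 3 libraries; the 3 Exon2KO points of kappa V (17.6 to 24.0) lie below all WT points (27.5 to 51.4), while those of lambda V span 3.03 to 7.79.

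The share of kappa among light-chain counts was lower in Exon2KO. Kappa members made up 95.4%, 93.6% and 90.8% of the light-chain reads for WT 2, 6 and 20, against 81.5%, 80.9% and 87.1% for Exon2KO 2, 6 and 20. All Exon2KO shares were below all WT shares, with means of 93.3 ± 2.32% and 83.2 ± 3.42% (SD, n = 3 each). For the constant genes alone the kappa share was 96.1% in WT 2 (95% Wilson interval 95 to 97.0%), 94.2% in WT 6 (93.0 to 95.2%) and 92.7% in WT 20 (91.0 to 94.1%). It was 84.4% in Exon2KO 2 (81.7 to 86.8%), 84.6% in Exon2KO 6 (82.4 to 86.5%) and 88.3% in Exon2KO 20 (85.1 to 90.9%). The intervals cover counting error only, as reads are not independent molecules. The narrowest distance between genotypes was in the libraries numbered 20; without them the difference between the mean shares of all members was -13.3 percentage points. These shares are sums over members and were not tested.

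Of the 73 members, 19 had enough counts to be tested: Igkc, 14 kappa V genes, Iglv1, Iglv2, Iglc1 and Iglc2. None was called at an adjusted p under 0.05 with edgeR without a block, where 2.33% of all 14919 tested genes were called (1.58% lower and 0.757% higher in Exon2KO), and 3 of the 19 had an unadjusted p under 0.05 (Igkc, Igkv6-17 and Igkv9-124) against 12.1% of all genes. The count filter asks for a minimum level in 3 libraries of either genotype, and 54 members did not reach it. Of the 19, 13 had a negative and 6 a positive log2 fold change, with a median of -0.75 against 0.0084 over all tested genes, of which 48.2% were negative. A filter of at least 10 counts in every library left 7 members, of which 0 were called. Of these 7, 4 were negative and 3 positive, with a median of -0.0083 against 0.0021 over all genes tested there. With the block 2 of the 19 were called, both lower, namely Igkc and Igkv6-17, where 9.72% of all tested genes were called, 5.79% lower and 3.93% higher. Igkv1-110 went from a negative to a positive value between these fits. The groups did not overlap for 2 of the 19, Igkv6-17 and Igkv9-124, against 17.7% of all tested genes; both had passed the filter through WT alone, so nothing is read from this count or from their part in the counts above. Without a count filter 5 members were called by edgeR (2.3% of all genes), and DESeq2 called 6 of the 45 members with an adjusted p (3.78% of the 16903 genes with one). The authors' deposited table lists an adjusted p under 0.05 for 5 of the 73 members, against 2.55% of the 24985 genes to which it gives an adjusted p. Apart from Igkv9-124, the members called without a filter, by DESeq2 or in the deposited table reached the count sum of 10 only through WT. Nothing is therefore read from these counts of called members.

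**Figure D2:**
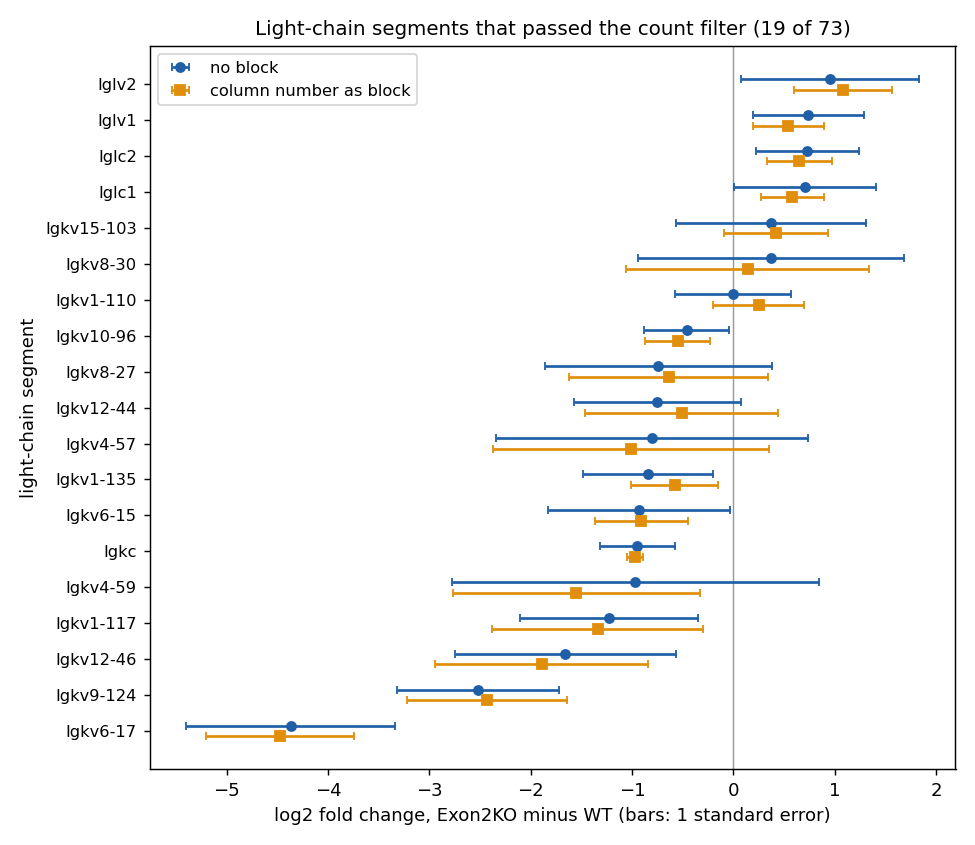
Log2 fold change of Exon2KO over WT (x axis, bars 1 standard error) for the 19 light-chain segments that passed the count filter (y axis), from edgeR without a block (blue circles) and with the column number as block (orange squares). Igkc at -0.95 and -0.97 has the narrowest bar under the block, the 4 lambda genes lie to the right of 0, and Igkv6-17 is farthest to the left.

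The 4 tested lambda genes had positive log2 fold changes, and none passed the threshold. Iglv1 (chr16:19085017-19085500, minus strand), the main lambda V gene, had 50, 53 and 43 counts in WT 2, 6 and 20, against 117, 99 and 20 in Exon2KO 2, 6 and 20. Its log2 fold change was 0.74 (SE 0.55, edgeR adjusted p = 0.725). Exon2KO 2 and 6 were high and Exon2KO 20 the lowest of all libraries. In the blocked fit without both libraries numbered 20, chosen after seeing the data, Iglv1 rose by 1.04 on the log2 scale (SE 0.26, adjusted p = 0.032 by edgeR), where 6.03% of all genes were called, 3.45% lower and 2.58% higher. Iglc1 (chr16:19061618-19062071), a lambda constant gene, had 37, 63 and 22 counts in WT, against 91, 92 and 14 in Exon2KO in the same order, with a log2 difference of 0.71 (SE 0.70, adjusted p = 0.819 by edgeR). Like Iglv1 it was highest in Exon2KO 2 and 6 and lowest in Exon2KO 20.

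Iglv2 and Iglc2 had a different profile over libraries. Iglv2 (chr16:19260401-19260859) had 3, 7 and 33 counts in WT 2, 6 and 20, against 5, 38 and 34 in Exon2KO, with a log2 difference of 0.95 (SE 0.88, adjusted p = 0.803 by edgeR), and was higher in Exon2KO within each number. Iglc2 (chr16:19198396-19200351) had 16, 35 and 44 counts in WT, against 24, 92 and 36 in Exon2KO, with a log2 difference of 0.73 (SE 0.51, adjusted p = 0.69 by edgeR). The share of Iglv1 among lambda V counts was thus 87.7%, 72.6% and 51.8% for WT 2, 6 and 20, against 91.4%, 65.1% and 37.0% for Exon2KO. In both genotypes the share was highest in the library numbered 2 and lowest in the library numbered 20. Iglv3 had 4, 13 and 7 counts in WT, against 6, 15 and 0 in Exon2KO, and Iglc3 had 6, 3 and 15 in WT, against 7, 0 and 5 in Exon2KO; both were too low to be tested. Iglc4 had 0 counts in every library. With 1 library left out the log2 difference of Iglc2 ran from 0.04 (without Exon2KO 6) to 1.06, that of Iglv1 from 0.30 (without Exon2KO 2) to 1.18, that of Iglc1 from 0.36 (without Exon2KO 2) to 1.23 and that of Iglv2 from 0.49 (without WT 2) to 2.31.

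Kappa J segments gave few reads, each being only 38 or 39 bases long in its transcript. Igkj5 had 1, 1 and 2 counts in WT 2, 6 and 20, against 4, 5 and 4 in Exon2KO. It was the only member whose Exon2KO libraries all lay above its WT libraries, and each WT library had 2 counts at most. Over all tested genes the groups did not overlap for 17.7%, and 9.29% lay lower in Exon2KO. Igkj5 was too low to be among the tested genes. Igkj4 had 1, 7 and 0 counts in WT, against 2, 3 and 0 in Exon2KO. Igkj2 had 4, 1 and 0 in WT, against 3, 3 and 0 in Exon2KO, and Igkj3 had 4, 0 and 1 in WT, against 0, 6 and 0 in Exon2KO. Their sum was 0.391 ± 0.218 CPM in WT and 0.532 ± 0.324 CPM in Exon2KO (SD, n = 3 each), and these groups overlapped. No J segment passed the count filter. For Igkj5 edgeR without a filter gave an unadjusted p of 0.156 (adjusted p = 0.793).

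Most kappa V genes were seen in some libraries and not in others. Of the 62 V members, 40 had more than 50% of their counts in a single library, 30 of them in a WT library and 10 in an Exon2KO library. Only 8 had a count in all 6 libraries, and 3 had at least 3 counts in each: Igkv1-110, Igkv10-96 and Igkv1-135. The number of V members with at least 3 counts was 48, 36 and 27 in WT 2, 6 and 20, against 26, 21 and 18 in Exon2KO 2, 6 and 20. Counts were in WT libraries only for 12 V members and in Exon2KO libraries only for 0. WT held 2449 of the 3593 V member counts, so a V gene could reach the pooled sum of 10 through WT more easily, and these splits of the members describe the rule as well as the genotypes. Over the 85 kappa V rows with any count, 26 had counts in WT only and 3 in Exon2KO only, again with more WT counts to draw from. The mean level was higher in WT than in Exon2KO for 47 of the 62. For 9 of the 62 all Exon2KO libraries lay below all WT libraries; 7 of these 9 were too low to be tested, so this count has no like background, and over all tested genes 9.29% lay so.

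The lower number of V genes in Exon2KO came with fewer V counts to draw from, as WT libraries held more (958, 903 and 588 against 432, 398 and 314). Scaled down to the 314 V counts of Exon2KO 20, the expected number of V genes seen was 46.9, 37.5 and 33.4 in WT 2, 6 and 20 and 30.2, 28.9 and 24.0 in Exon2KO. At equal counts the WT libraries still lay above the Exon2KO libraries, with 39.3 ± 6.92 against 27.7 ± 3.27 genes (SD, n = 3 each). Such a draw treats reads as independent molecules and covers counting error only. Over all 178 kappa V rows, which the rule did not choose, the expected number in 322 counts was 52.6, 41.4 and 37.7 for WT 2, 6 and 20, against 32.8, 33.4 and 26 for Exon2KO. The effective number of V genes (the inverse Simpson index, which is low when few genes hold most reads) was 27.3, 20.6 and 13.0 in WT and 17.7, 14.1 and 11.9 in Exon2KO, and here the groups overlapped while Exon2KO was lower within each number. The difference between the mean effective numbers was -5.74, and it ranged from -9.39 without WT 20 to -2.24 without WT 2; among members with at least 50 counts it was -3.6. For the expected number of V genes at equal counts the difference was -11.6, with a range from -14.5 without WT 20 to -7.77 without WT 2. The libraries numbered 20 had the lowest value of their genotype in both measures.

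**Figure D3:**
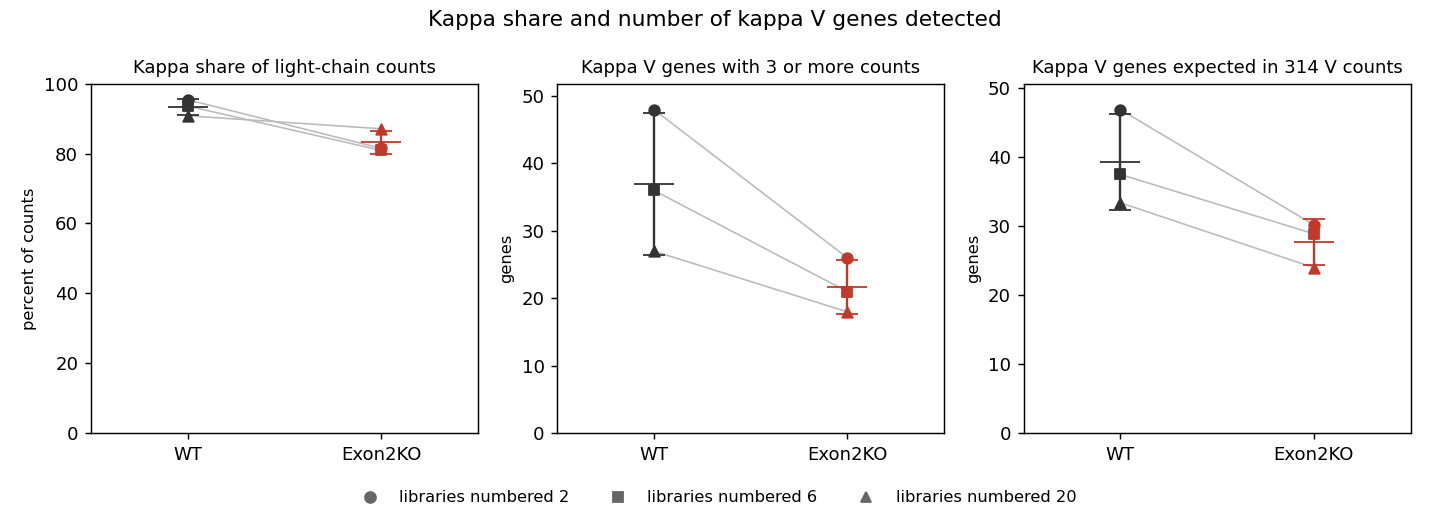
Kappa share of all light-chain counts (percent), kappa V genes with 3 or more counts, and kappa V genes expected in a draw of 314 V counts (y axes start at 0). Points are libraries with a marker for each column number and bars are the mean ± SD of 3 libraries; in all 3 panels the Exon2KO points lie below the WT points, and for the 314 counts they span 24.0 to 30.2 against 33.4 to 46.9.

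A different V gene led in most libraries. Igkv1-135 was first in WT 2 with 100 counts (10.4% of the V counts) and Igkv1-110 in WT 6 with 95 (10.5%). Igkv5-45 was first in WT 20 with 120 counts (20.4%). In Exon2KO 2, Igkv8-28 led with 44 counts (10.2%), in Exon2KO 6 Igkv1-110 with 50 (12.6%), and in Exon2KO 20 Igkv8-30 with 55 (17.5%). The leading gene's share was 13.8 ± 5.74% in WT and 13.4 ± 3.72% in Exon2KO (SD, n = 3 each). The 5 leading genes together held 29.4%, 39.2% and 49.8% of the V counts for WT 2, 6 and 20, against 44.4%, 52.3% and 52.9% for Exon2KO, higher within each number, and these groups overlapped. Of the 10 most abundant V genes of a library, between 1 (WT 2 and WT 6) and 6 (WT 6 and Exon2KO 6) were shared with another library.

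The 4 kappa V genes with the most counts had log2 differences from -1.23 to -0.0042, and none was called. Igkv1-110 (chr6:68270485-68271267, plus strand) had 30, 95 and 20 counts in WT 2, 6 and 20, against 43, 50 and 49 in Exon2KO 2, 6 and 20, with a log2 difference of -0.0042 (SE 0.57, adjusted p = 0.998 by edgeR). Its Exon2KO libraries were nearly level and lay inside the WT range. Igkv10-96 (chr6:68631963-68632442, minus strand) had 56, 43 and 44 counts in WT, against 43, 44 and 13 in Exon2KO, with a log2 difference of -0.46 (SE 0.42, adjusted p = 0.794 by edgeR). Apart from the low Exon2KO 20, its libraries were alike. Igkv1-117 (chr6:68121046-68121827) had 26, 85 and 66 counts in WT, against 33, 39 and 1 in Exon2KO (log2 fold change -1.23, SE 0.88), and Igkv1-135 (chr6:67609713-67610508) had 100, 18 and 28 in WT, against 29, 33 and 17 in Exon2KO (-0.84, SE 0.64). Neither passed the threshold, and the groups of both overlapped.

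The other 6 of the 10 V genes with the most counts were uneven over libraries. Igkv5-45 (chr6:69775750-69776344) had 1, 30 and 120 counts in WT, against 0, 3 and 0 in Exon2KO, so 77.9% of its reads came from WT 20, and it did not pass the count filter. Igkv8-30 (chr6:70117061-70117620) was high in WT 2 with 43 counts and in Exon2KO 20 with 55, against 0 in Exon2KO 6. Igkv4-59 (chr6:69438218-69438757) was present with 30, 50 and 42 counts in WT 2, WT 6 and Exon2KO 6 and had 0 in the other 3 libraries. Igkv12-44 had 35, 30 and 2 counts in WT, against 8, 13 and 18 in Exon2KO, and Igkv6-15 had 33, 3 and 35 in WT, against 12, 2 and 20 in Exon2KO. Igkv12-46 (chr6:69764523-69765022) had 35, 10 and 16 counts in WT, against 1, 0 and 17 in Exon2KO, with a log2 difference of -1.66 (SE 1.09, adjusted p = 0.672 by edgeR). Its log2 difference was -0.97 without WT 2. In the blocked fit without both libraries numbered 20 it was called lower (adjusted p = 0.0057 by edgeR), and over all fits its adjusted p ran to 0.94. In that blocked fit it passed the count filter through WT 2 and WT 6 alone, so nothing is read from the call. Without Exon2KO 20 its Exon2KO counts are under the smallest level shown, so no fold is given. The groups of these 6 genes overlapped. None of the 5 that were tested passed the threshold without a block, with edgeR adjusted p from 0.672 to 0.961.

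**Figure D4:**
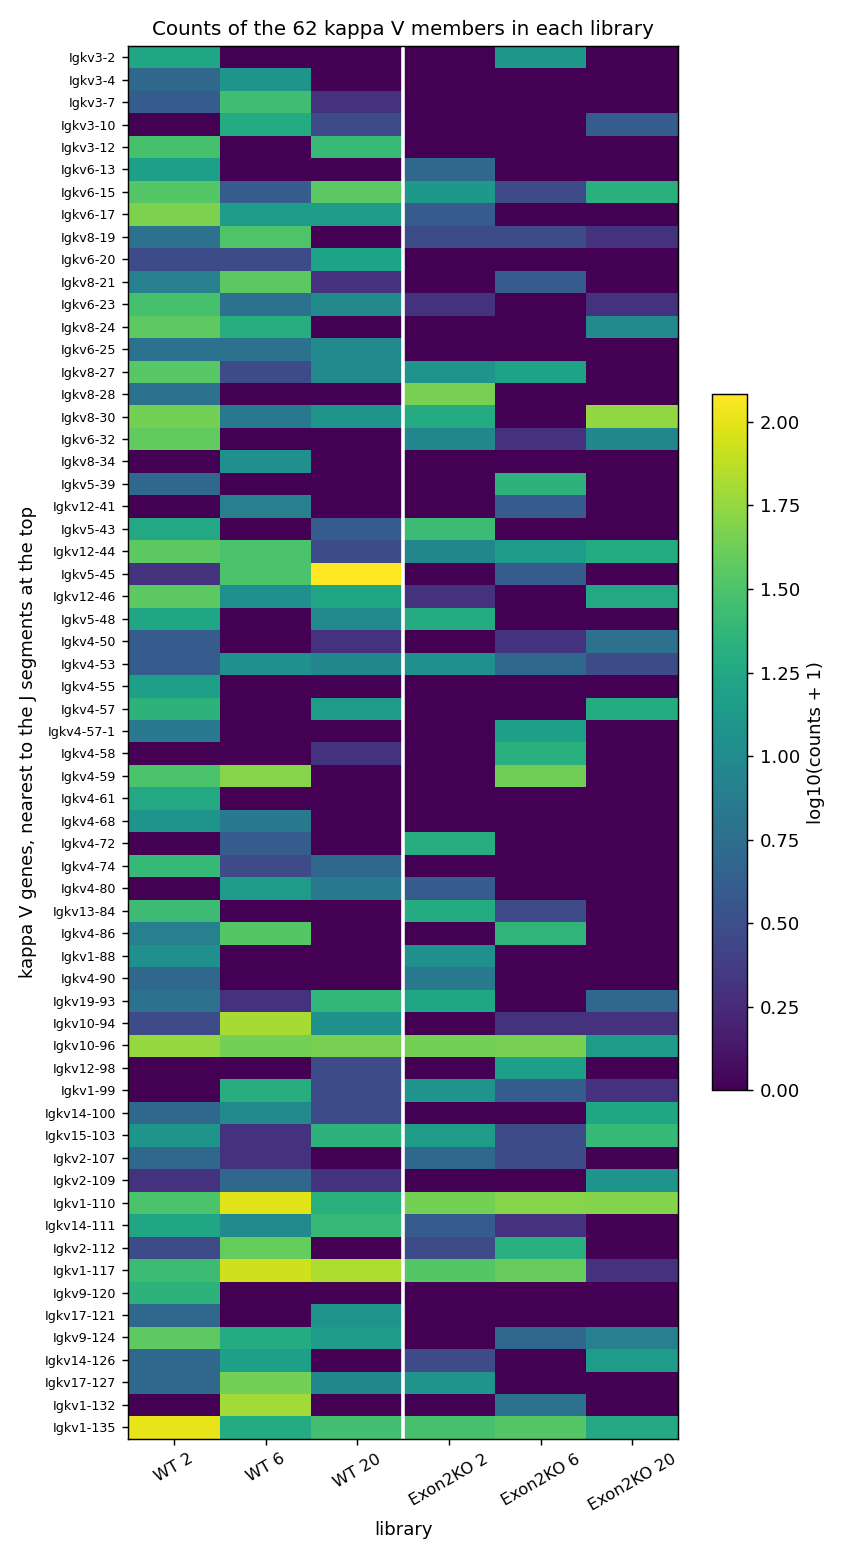
Counts of the 62 kappa V members (rows, ordered by position with the gene nearest to the J segments at the top) in the 6 libraries (columns), colored by log10(counts + 1). The white line separates the genotypes; most rows are bright in 1 or 2 libraries only, Igkv1-110, Igkv10-96 and Igkv1-135 are seen in all 6, and WT 2 has the most rows with reads.

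Igkv6-17 (ENSMUSG00000095794, chr6:70371439-70371993, plus strand) was the V gene with the lowest p among the tested members. It had 46, 13 and 13 counts in WT 2, 6 and 20, against 3, 0 and 0 in Exon2KO 2, 6 and 20, and the groups did not overlap. The edgeR adjusted p was 0.0749 without a block and 0.00087 with it, where Igkv6-17 was called lower; over all alternatives it ran from 0.00087 to 0.273. It passed the count filter through its 3 WT libraries alone, as did Igkv9-124, so neither gene could have been tested in these fits without being high in WT. As Exon2KO was at or under the smallest level shown, no fold change is given. Igkv9-124 (chr6:67942074-67942540, minus strand) had 36, 18 and 13 counts in WT, against 0, 4 and 7 in Exon2KO, with a log2 difference of -2.52 (SE 0.80, adjusted p = 0.193 by edgeR), and of -2.43 with the block (SE 0.79, adjusted p = 0.0901 by edgeR). It was called lower without a count filter (adjusted p = 0.0402 by edgeR) and in the blocked fit without both libraries numbered 20 (adjusted p = 0.0245 by edgeR). With 1 library left out Igkv9-124 was not called, and its log2 difference was -1.96 without Exon2KO 2 and -2.84 without WT 20. Where Exon2KO 20 was left out, its Exon2KO counts were 0 and 4, so no fold is given. Its groups did not overlap either, and its nearest relative, Igkv9-120, had 21 counts in WT 2 and 0 elsewhere.

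By sequence family, named by the first number of the V gene, 14 of the 15 families had a higher mean in WT than in Exon2KO. The groups did not overlap for 3 of them (20% of the families), all lower in Exon2KO. Over all tested genes 17.7% did not overlap, and 9.29% did so with Exon2KO lower. Those shares are of single genes, not of sums. The family sums hold only members, and a V gene could reach the pooled count sum through WT more easily. These counts of families therefore describe the rule as well as the genotypes. The 6 members of Igkv1, the family with the most counts, summed to 9.88 ± 5 CPM in WT and 5.82 ± 1.74 CPM in Exon2KO (SD, n = 3 each), with overlap. The 3 families without overlap were Igkv10 (3.11, 5.83 and 2.53 CPM in WT 2, 6 and 20; 2.39, 2.31 and 0.786 CPM in Exon2KO), Igkv3 (2.79, 3.08 and 1.31 CPM; 0, 0.615 and 0.169 CPM) and Igkv9 (3.06, 0.990 and 0.609 CPM; 0, 0.205 and 0.393 CPM). The exception was Igkv15, with a single member, Igkv15-103, at 0.543 ± 0.466 CPM in WT and 0.724 ± 0.623 CPM in Exon2KO (SD, n = 3 each). Family sums were not tested.

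The kappa V level was lower on both strands and in both parts of the locus. V genes transcribed on the plus strand (24 members) stood at 47.3% of WT in Exon2KO and those on the minus strand (38 members) at 48.9%, and for both sums the groups did not overlap. As background, the strand decides whether joining to J deletes or inverts the DNA between them. The 31 members nearer to Igkj1 (23.5 to 1178 kb away) summed to 18.7 ± 7.15 CPM in WT and 7.62 ± 2.43 CPM in Exon2KO (SD, n = 3 each), without overlap. The 31 farther members (1222 to 3112 kb away) summed to 24.1 ± 10.6 and 13.1 ± 3.69 CPM (SD, n = 3 each), and WT 20 overlapped the Exon2KO libraries. A difference between the parts of the locus was not tested. The 10 most abundant V genes stood at 57.0% of WT, without overlap of the groups. The other 52 stood at 41.2%, and their groups overlapped.

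Per length, kappa V and C counts were of like size. Kappa C counts per kilobase of gene model divided by kappa V counts per kilobase gave 1.06, 1.28 and 1.22 in WT 2, 6 and 20 and 1.07, 1.79 and 0.929 in Exon2KO. For lambda the ratio was 0.825, 1.07 and 0.703 in WT and 0.776, 0.890 and 0.699 in Exon2KO. The genotypes overlapped in both ratios, and Exon2KO 6 had the highest kappa ratio.

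Partner genes of the light chain were taken from a list of 16, of which 11 were tested. Without the block 2 were called lower and 0 higher, and with the block 6 were lower and 0 higher, where the shares of all tested genes are the 1.58% and 5.79% lower given above, which also hold for the marker lists below. The 2 were heavy-chain constant genes, which encode the chain that pairs with the light chain. Ighm (the IgM constant gene) fell, at 813 ± 32.6 CPM in WT and 306 ± 63.0 CPM in Exon2KO (SD, n = 3 each), with a log2 difference of -1.41 (SE 0.14, adjusted p = 0.00253 by edgeR), and Ighd (IgD) fell from 15.9 ± 1.72 to 4.53 ± 1.33 CPM, by 1.80 (SE 0.23, adjusted p = 0.00435 by edgeR). Per kilobase of gene model, the level of Ighm was 431 ± 17.3 CPM and that of Igkc 135 ± 41.1 CPM in WT, and 162 ± 33.4 and 70 ± 26.7 CPM in Exon2KO (SD, n = 3 each). On that scale Ighm was above Igkc in all 6 libraries. The rows of the heavy-chain V genes summed to 39.1 ± 7.87 CPM in WT and 22.6 ± 4.37 CPM in Exon2KO (SD, n = 3 each).

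Igha and Jchain encode the IgA constant region and the joining chain of secreted IgA and IgM. Like Igkc, both were lowest within each genotype in the library numbered 20. Igha was at 148, 124 and 47.8 CPM in WT 2, 6 and 20 and 65.4, 68.4 and 25.1 CPM in Exon2KO; Jchain was at 27.3, 31.0 and 12.6 CPM in WT and 16.4, 17.4 and 8.20 CPM in Exon2KO. Both were lower in Exon2KO within each number. Ighg2b (IgG2b) had another order, with 1.34, 16.3 and 20.5 CPM in WT 2, 6 and 20, against 0.888, 8.40 and 7.53 CPM in Exon2KO, and was also called lower with the block (adjusted p = 0.000668 by edgeR). With the block Igha fell by 0.99 (SE 0.07, adjusted p = 5.43e-07 by edgeR) and Jchain by 0.74 (SE 0.11, adjusted p = 0.000273 by edgeR); without it the adjusted p was 0.658 and 0.607. Of the signal chains of the B cell receptor, Cd79b was called lower with the block (-0.51, SE 0.11, edgeR adjusted p = 0.00501), and Cd79a was not (0.15, SE 0.20, adjusted p = 0.745). The surrogate light-chain genes of precursor B cells were at or near 0: Vpreb2 and Igll1 had 0 counts in all libraries and Vpreb1 at most 0.385 CPM.

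Markers of B cells and plasma cells were present at low levels. Of the 14 B cell markers, 12 were tested and 0 were called without the block; with it 2 were called lower, Cd79b and H2-Ob. Much of their summed level, given above, came from H2-Ob. Of the 12 tested, 6 had a negative and 6 a positive log2 fold change, with a median of -0.14, and the groups overlapped for 12 of the 14. Ms4a1 was at 1.34 ± 0.557 CPM in WT and 1.45 ± 0.763 CPM in Exon2KO, Pax5 at 1.48 ± 0.497 and 1.96 ± 0.672 CPM, and Cd79b at 21.6 ± 1.23 and 15.2 ± 1.56 CPM (SD, n = 3 each). Of the 8 plasma cell markers, 6 were tested, 0 were called without the block and 3 were called lower with it: Jchain, Irf4 and Derl3. Their log2 fold changes were negative for 4 of the 6 and positive for Sdc1 and Xbp1, with a median of -0.55. Xbp1, Prdm1 and Irf4, which Tregs also make, gave most of their summed level. Of the defining plasma cell markers, Jchain is given above, Sdc1 was at 0.872 ± 0.198 and 1.01 ± 0.651 CPM, and Tnfrsf17 was at 0.259 ± 0.0218 CPM in WT and had 3, 0 and 0 counts in Exon2KO. The part of B or plasma cells in the light-chain levels was not tested.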

How the data were processed

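RNA from 6 Treg libraries was column-purified and made into Illumina libraries, per the labels' protocols. The deposited table holds counts per gene, whole numbers that the authors did not normalize, and gene lengths, per the file headers; 6 further per-sample columns were not used. It also holds the authors' comparison of Exon2KO with WT: group means as a scaled signal (not used here), a log2 fold change and a p-value with an adjusted p-value, per the file headers. HISAT2 2.0.5, StringTie 1.3.3b, featureCounts 1.5.0-p3, DESeq2 1.16.1 and the build mm10 are named in the submitters' processing notes; strand setting and treatment of reads with several matches are not given in the sources used here. Positions of all 73 members are identical in GENCODE M21 (GRCm38), the source of the sequences.

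The counts were tested with edgeR 4.0.16 (R 4.3.3; filterByExpr, TMM, robust quasi-likelihood test, two-sided, Benjamini-Hochberg over all 14919 tested genes, threshold 0.05). SE is the absolute log2 fold change divided by the square root of F. Levels are CPM on the TMM-scaled total. Alternatives used DESeq2 1.42.0, limma-voom 3.58.1, other scalings and filters, and each library left out. Columns could be assigned to a genotype, not to a titled replicate. Same-numbered columns deviated together (correlations over 14919 genes of 0.271, 0.369 and 0.494 for numbers 2, 6 and 20), so blocked fits on that number are given where they change a call; no label says what the numbers mean. Replicates were no duplicates (chi-square per degree of freedom 8.12 to 23.6). The scripts were tested on simulated data.

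Members, gene lists and tests were chosen with earlier results of these data known. Named were all C, J and lambda members, the 10 kappa V members with the most counts, called members and those nearest the count threshold; other V genes (such as Igkv9-124, Igkv8-28 and Igkv15-103) were named after their values were seen. A B cell marker of the lists is not reported here.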

Additional observations from a re-analysis of the deposited data

How the results depend on the processing

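Without the block 0 members were called (3 at an unadjusted p under 0.05). With the replicate block 2 were called, without a count filter 5, and with DESeq2 6 (of the 45 with an adjusted p). With the block but without both libraries numbered 20, 6 of 28 tested members were called (Igkc, Igkv12-46, Igkv6-17, Igkv8-24 and Igkv9-124 lower, Iglv1 higher). In that fit Igkv12-46, Igkv6-17, Igkv8-24 and Igkv9-124 passed the count filter through WT 2 and WT 6 alone. Leaving out 1 library each gave 0 to 1 (Igkv3-12, without WT 6). There Igkv3-12 passed the filter through WT 2 and WT 20 alone. Nothing is read from the calls of genes that passed through WT alone. Over all genes 348 were called, against 1450 with the replicate block, 617 with no filter, 639 by DESeq2, 900 with the block but no library numbered 20, and 86 to 314 with 1 library left out. Igkv14-111, Igkv4-74 and Igkv6-23, which did not pass the count filter, were called both without it and by DESeq2. Each of these genes reached the count sum of a member only through its WT counts, so nothing is read from these calls either. Igkc kept its direction in all alternatives, at -1.27 to -0.71 with 1 library left out (edgeR adjusted p 0.262 to 0.737), and was called only with the block; its adjusted p ran from 1.04e-06 to 0.737. Igkv1-110 reversed with the block (0.25) and with limma-voom (0.41) and lay at -0.41 to 1.02 with 1 library left out. Igkv8-30 reversed with limma-voom (-0.89) and with the block without the libraries numbered 20 (-1.63) and ran from -1.09 to 1.65; Igkv1-135 ran from -1.22 to 0.29 and Igkv12-44 reversed with limma-voom (0.043). The cause was not tested. The kappa V sum lay at -1.29 to -0.90 on the log2 scale with 1 library left out (all: -1.05), the lambda V sum from 0.47 to 1.03 (0.71) and the lambda C sum from 0.24 to 0.96 (0.62). The kappa J sum turned to -0.11 without Exon2KO 6 (0.44). The kappa share differed by -12.1 to -8.99 percentage points, and by -13.3 without the libraries numbered 20. Other scalings moved the V, J and C sums by less than the spread between replicates, as did members with at least 50 counts for the V and C sums and leaving out the pseudogene for the kappa V sum. The alternatives without the libraries numbered 20 and over all kappa V rows were chosen after seeing the data. Few counts per V gene limit what single V genes can show.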

Other observations

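Genes that rearrange or transcribe light-chain loci were examined as a list of 14, of which 10 were tested. None was called without the block, where 2.33% of all tested genes were called with edgeR; with the block 3 were called lower (Pou2f2, Irf4 and Irf8) and 2 higher (Pou2af1 and Ikzf1), where 5.79% of all tested genes were called lower and 3.93% higher. Pou2af1, a coactivator at immunoglobulin promoters, was at 5.15, 6.38 and 6.89 CPM in WT 2, 6 and 20 and at 10.4, 18.4 and 8.26 CPM in Exon2KO, so that it was higher in every Exon2KO library (log2 fold change 0.94 with the block, SE 0.21, edgeR adjusted p = 0.0179). Irf8 was at 43.9 ± 4.30 CPM in WT and 35.1 ± 5.18 CPM in Exon2KO (SD, n = 3 each). The recombinase genes were at or near 0: Rag2 had 0 counts in all libraries, and Rag1 gave 0, 1 and 2 counts in WT, against 0, 0 and 5 in Exon2KO.

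The authors' deposited table gives an adjusted p under 0.05 for 5 of the 73 members, all lower in Exon2KO: Igkv10-94, Igkv6-17, Igkv14-111, Igkv6-23 and Igkv3-7. Each of these reached the count sum of 10 only through its WT counts, so nothing is read from their number or direction. Of the 24985 genes with an adjusted p in the authors' deposited table the share is 2.55%. For Igkc the authors' deposited table lists -0.95 as log2 fold change, with adjusted p 0.285. Igkv10-94 gave 2, 63 and 10 counts in WT 2, 6 and 20, against 0, 1 and 1 in Exon2KO, with 81.8% of its reads in WT 6.

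Myeloid and erythroid markers were low as well. The 6 myeloid genes summed to 19.7 to 39.3 CPM in WT and 15.3 to 31.3 CPM in Exon2KO, and the 5 erythroid genes to 5.34 to 17.4 CPM and 3.48 to 13.5 CPM. With the block 1 of the 5 tested myeloid genes, Lyz2, was called lower, and 0 of the 4 tested erythroid genes were called.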
